A study of Drosophila melanogaster with 3 samples.

Results

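Zelda (ZLD) sites that were called in the peak lists of cycle 8 and cycle 13 embryos and no longer called at late cycle 14 are described here, and they are referred to as lost sites. Peaks of the 3 lists whose interval midpoints lay within 150 bp of each other were joined into 1 site, which gave 16200 sites in all and 13531 on the arms 2L, 2R, 3L and 3R. A site on these 4 arms was kept when it held peaks of both earlier lists and none of the late cycle 14 list, and 1626 sites met this rule. They made up 12% of the sites on the 4 arms and 27.0% of the 6019 that were in both the cycle 8 and the cycle 13 list. The members were thus chosen by the called peaks, and so by the same reads as their coverage, which is given as a description and without a test.

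ZLD is a zinc-finger protein that the mother supplies to the egg and that is needed for the first transcription from the zygotic genome of Drosophila. It binds the heptamer CAGGTAG and related elements, and its binding is associated with open chromatin at promoters and enhancers. The nuclei divide rapidly without cell membranes until cycle 14, when the cell cycle slows, cells form and the genome is widely activated at the maternal-to-zygotic transition.

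All embryos were wild type, of the strain Oregon R, untreated as far as the labels say, and they were sorted by hand into mitotic cycles 8 to 9, cycles 13 to 14 and late cycle 14. The middle group, called cycle 13 here, may therefore hold embryos that had entered cycle 14. The antibodies were raised against a carboxy-terminal portion of ZLD and depleted of those that bound the zinc fingers, and 3.7, 6.6 and 6 µg of chromatin went into the precipitations of the 3 stages, in order. Each stage had 1 library of pooled embryos and no replicate, so that the spread between embryo collections is unknown and a difference between stages cannot be told apart from a difference between libraries.

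Series of 3 values run from cycle 8 over cycle 13 to late cycle 14 (late 14) throughout. The libraries held 13496488, 18870755 and 17481411 mapped reads, and 23.4%, 50.9% and 41.0% of them were distinct in position and strand. Coverage is the number of reads, extended to 150 bp, over the centre of a site, scaled to 10000000 reads per library. The background, taken as the median coverage of the 4 arms, was 4.45, 4.24 and 4.0. Intervals on coverage are exact Poisson intervals and those on shares exact Clopper-Pearson intervals, both at 95%. They cover counting error only, and reads that are PCR copies of each other make them too narrow. An interval in brackets after a series of 3 coverage values belongs to the late cycle 14 value.

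The lost sites had a median coverage of 153, 87.4 and 37.8 in cycles 8, 13 and late 14. These values were 34.3, 20.6 and 9.43 times the background, so the typical lost site declined in steps and was still above the background when it was no longer called. The quartiles of these sites were 99.3 and 240.1 in cycle 8 embryos, 71.5 and 112 in cycle 13 embryos and 26.9 and 49.8 in late cycle 14 embryos. Sites in all 3 lists (n = 4393) had medians of 198, 301 and 256, and sites in the cycle 8 list only (n = 3537) had 85.9, 32.9 and 15.4. At cycle 8 the lost sites thus stood closer to the sites in all 3 lists than to those called at cycle 8 only, and at late cycle 14 their median of 37.8 was far below the 256 of the sites in all 3 lists.

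**Figure D1:**
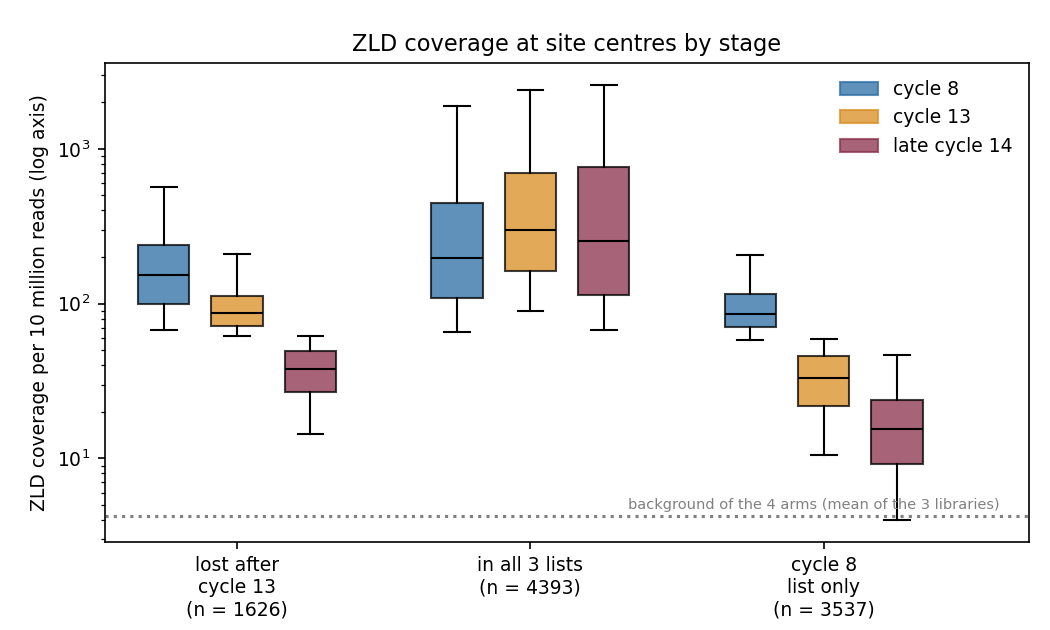
ZLD coverage at the site centre (per 10000000 reads, log axis) by stage, for lost sites, sites in all 3 lists and sites in the cycle 8 list only. Boxes span the quartiles with the median as a line, whiskers the 5th to 95th percentile of sites, and the dotted line is the background. The medians of the lost sites step down through 153, 87.4 and 37.8, while those of the sites in all 3 lists are 198, 301 and 256.

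Relative to cycle 13, coverage at late cycle 14 was lower at 1608 of the 1626 lost sites, against 60.5% of all 13531 sites. The median log2 ratio of late cycle 14 over cycle 13 was -1.28 for the lost sites and -0.30 for all sites, and 1096 lost sites (67.4%) were at least 2-fold lower, against 25.6% of all sites. None was higher by 2-fold or more. The rule itself selects for this decline, and nothing is read from these counts. The share past 2-fold depended on the scaling. It was 57.1% (20.9% of all sites) when libraries were scaled by the median of ratios over sites in all 3 lists, and 51.4% (19.0%) when 1 read per position and strand was counted.

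Most lost sites had less coverage at cycle 13 than at cycle 8, while they were still in the peak list. The rule asks for a cycle 8 peak and for no peak at the last stage, which favours a fall from cycle 8. With 1 library per stage, the fall also cannot be told apart from a difference between libraries. The values are thus a description, and when the decline began was not tested. Cycle 13 coverage was below cycle 8 coverage at 1370 lost sites (84.3%), against 46.2% of all sites, with a median log2 ratio of -0.73 for the lost sites, 0.50 for the sites in all 3 lists and 0.18 for all sites. It was lower by 2-fold or more at 615 lost sites (37.8%), against 26.3% of all sites and 4.07% of the sites in all 3 lists. When 1 read per position and strand was counted, these shares were 26.4%, 23.3% and 15.9%, so that the lost sites were close to all sites. The size of this early decline rested on the scaling, which shifted the median of all sites by between -0.52 and 0.21 on the log2 scale. With the median of ratios, 1573 lost sites (96.7%) were lower at cycle 13 and all sites had a median of -0.34. With reads outside sites, 1214 (74.7%) were lower and all sites had a median of 0.39. The median of the lost sites minus that of all sites was -0.91, a difference that a scaling of whole libraries cannot change. It was -0.45 when 1 read per position and strand was counted, which gave medians of -0.53 for the lost sites and -0.08 for all sites.

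Over the 3 stages, cycle 13 coverage lay between the cycle 8 and late cycle 14 values at 1376 lost sites (84.6%), against 77.9% of all sites. Coverage fell in both steps at 1364 of the 1626 lost sites, against 5726 of all 13531 sites, and the fall after cycle 13 was the larger on the log2 scale at 1020 of the 1364, against 2774 of the 5726. A further 244 lost sites rose at cycle 13 and then fell, against 2467 of all sites. Another 12 rose in both steps, against 4810, and 6 fell and then rose, against 528. Which fall was the larger depended on the scaling. With libraries scaled by mapped reads, the lost sites had median log2 ratios of -0.73 before and -1.28 after cycle 13. With the median of ratios these were -1.25 and -1.12. The rule asks for a cycle 13 peak and no late cycle 14 peak, which also favours a larger late fall. From cycle 8 to late cycle 14, 1333 lost sites were lower by 2-fold or more, against 39.8% of all sites, and 298 by 10-fold or more, against 9.18%. Late cycle 14 coverage was at or above 2 times the background at 1608 lost sites (98.9%), against 94.5% of all sites, and at or above 10 times the background at 736 (45.3%), against 68.0%. The heights in the late cycle 14 peak list had a minimum of 13.8, a 5th percentile of 61.5 and a median of 135, and 86 lost sites had late cycle 14 coverage at or above that 5th percentile, against 58.3% of all sites. Since members are sites without a late cycle 14 peak, the rule itself sets them low against these heights.

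The name did not hold for all members. At 22 of the 1626 the centre lay inside the interval of a late cycle 14 peak whose midpoint was more than 150 bp away. Of all sites, 58.7% had their centre in some late cycle 14 interval, which could be that of their own peak. In the classes without a late cycle 14 peak the share was 1.35% for lost sites, 1.10% for the cycle 8 list only and 2.83% for the cycle 13 list only. These 22 sites had median coverage of 857, 1159 and 1133 in cycles 8, 13 and late 14, and only 1 was at least 2-fold lower in late cycle 14 embryos than in cycle 13 embryos. They are members through the distance between midpoints, and 14 of them had higher coverage at late cycle 14 than at cycle 13. Without them, the remaining 1604 sites had medians of 152, 86.4 and 37.8, and 1095 (68.3%) were at least 2-fold lower in late cycle 14 embryos than in cycle 13 embryos. At the edge of the rule, 24 members had a late cycle 14 midpoint more than 150 and up to 200 bp away, with medians of 305, 487 and 306 over the 3 stages. The 60 sites just outside, in all 3 lists with a late cycle 14 midpoint 100 to 150 bp away, had 343, 609 and 467. The 1518 members with no late cycle 14 midpoint within 500 bp had 151, 84.8 and 37.2.

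**Figure D2:**
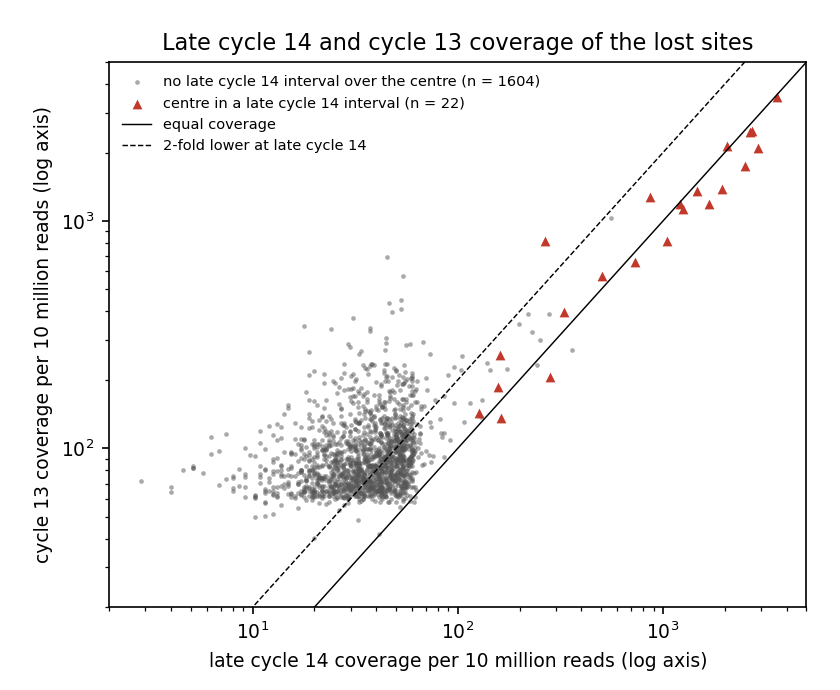
Late cycle 14 coverage (x axis) against cycle 13 coverage (y axis) of the 1626 lost sites, both per 10000000 reads on log axes; triangles mark the 22 sites whose centre lies in a late cycle 14 interval. Most of the other 1604 points lie left of the line of equal coverage with a late cycle 14 coverage under 61.5, the 5th percentile of the peak heights of that stage, while the triangles follow that line.

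Around the centre, the median profile of the 1604 sites kept its shape while its height changed. Its width at 0.5 times the central height was 180, 190 and 200 bp over the 3 stages, on a grid of 10 bp. At 1000 bp on both sides the late cycle 14 median was 4.58, near the background of 4.0. The late cycle 14 median was thus highest at the centre. The centre was set from coverage pooled over the 3 stages, and a median does not show what single sites did. On 3R at 19077771, late cycle 14 coverage rose from 559 at the centre to 1367 at 180 bp to 1 side.

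**Figure D3:**
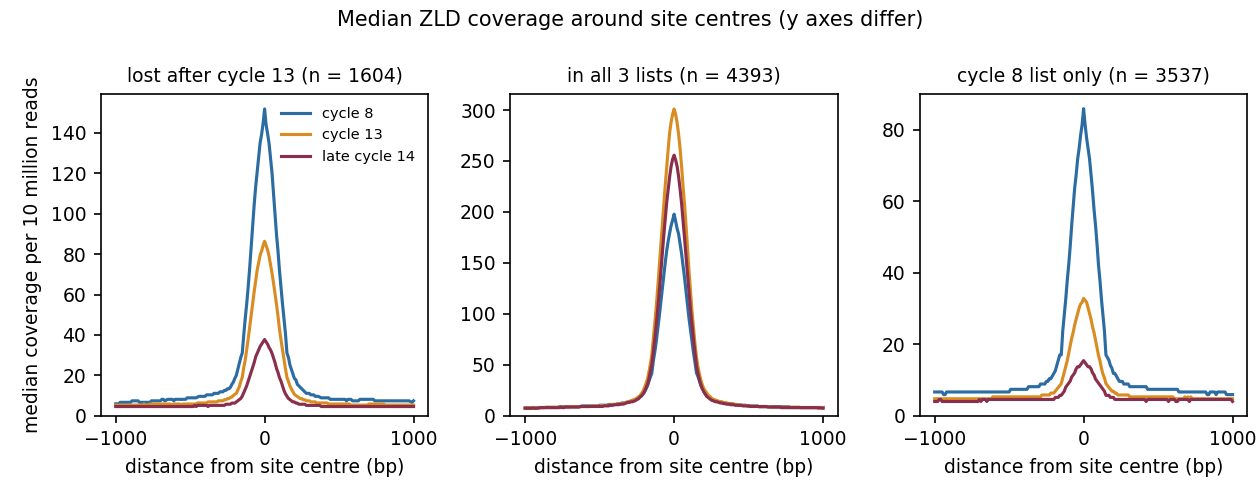
Median coverage (per 10000000 reads) by distance from the site centre in bp, for 1604 lost sites outside late cycle 14 intervals, 4393 sites in all 3 lists and 3537 sites in the cycle 8 list only, with 1 line per stage and a y axis of its own in each panel. The median profile of the lost sites has a central peak of 37.8 at late cycle 14.

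Among the 10 lost sites with the highest cycle 8 coverage, 6 had their centre in a late cycle 14 interval. The other 4 all fell by more than 2-fold in both steps. The strongest of the 4 lay in the coding region of CG11345, on 3L at 4457584 (dm3, as all positions here), with 2212, 375 and 30.9 in cycles 8, 13 and late 14 (23.2 to 40.3). A site in the coding region of CG15105, on 2R at 14893784, had 1965, 344 and 17.7 (12.05 to 25.17). At late cycle 14 it stood 4.28 below its cycle 13 level on the log2 scale, the largest fall among members whose cycle 13 coverage was at or above the median. An intergenic site near pwn, CG12164 and Dscam, on 2R at 3191068, had 1694, 269.7 and 44.0 (34.8 to 55.1), and the nearest start was that of CG12164. Dscam encodes a cell adhesion molecule with very many splice forms that guides the wiring of neurons. The 4th was an intergenic site near CG12516, on 3R at 24128679, with 1534, 306 and 44.6 (35.3 to 55.7). At each of these sites most of the signal had gone by cycle 13, and the nearest late cycle 14 peak was at least 8975 bp away.

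The 6 others among these 10 sites showed what a shift of the midpoint looks like. Of the pair of lost sites between ppa and robo, on 2R at 18578234 and 18578542, the first had 3339, 3524 and 3608 in cycles 8, 13 and late 14, and the second had 1813, 2477 and 2705. robo encodes the receptor that keeps axons from crossing the midline. At late cycle 14 a single interval from 18578051 to 18578700 covered both centres, whereas the earlier lists split the region into separate peaks. The site on 3L at 9022607, between the T-box genes Doc2 and Doc1, had 1535, 2140.3 and 2045, and the site on 2R at 9450020 near CG13334 had 1550, 1189 and 1217. Coverage did decline by more than 2-fold in both steps at an intronic site of wun, on 2R at 5295423. The site had 1877, 820.3 and 265 (242 to 291), and wun encodes a lipid phosphate phosphatase that guides germ cells. An intronic site of the ribosomal protein gene RpL13A, on 3R at 1450974, had 1598, 1277 and 860.3.

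**Figure D4:**
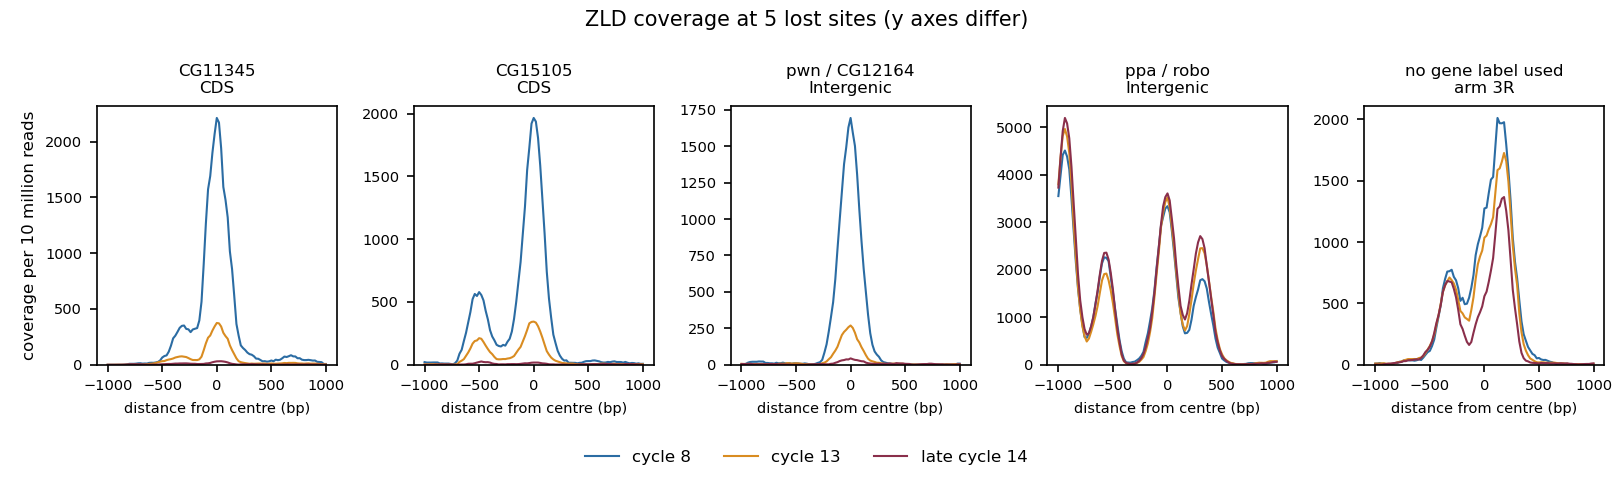
Coverage (per 10000000 reads) at 5 lost sites by distance from the centre in bp, 1 line per stage, with a y axis of its own in each panel. At CG11345, CG15105 and pwn the late cycle 14 line lies near 0, at 30.9, 17.7 and 44.0 over the centre; between ppa and robo the 3 lines nearly coincide over the centre; the last panel, the 3R site at 19077771, keeps 559 at late cycle 14.

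Other members with a large fall after cycle 13 lay in introns and coding regions. The intronic site of Gprk1, a kinase that phosphorylates G-protein-coupled receptors, on 2R at 288725, had 1369, 694 and 45.2 in cycles 8, 13 and late 14 (35.8 to 56.3). It kept more of its signal at cycle 13 than the sites of CG11345 and CG15105 and those near pwn and CG12516. A site in all 3 lists lay 379 bp away. A site in an intron of CG5629, on 3R at 14970432, had 527, 112 and 6.29 (3.14 to 11.3), and a coding site of CG31741, on 2L at 18084573, had 528, 116 and 7.44 (3.96 to 12.7). A site with no label, on 3R at 22528507, had 242, 94.3 and 6.29 (3.14 to 11.3). The late cycle 14 values of those last 3 sites were close to the background of 4.0.

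The largest falls before cycle 13 included an intronic site of CG31163 (3R at 18102034), with 916, 95.9 and 14.3 in cycles 8, 13 and late 14. Similar values were found at a coding site of Unc-89 (2R at 19887560), which encodes a giant protein of the muscle sarcomere, with 938, 104 and 21.2. At a promoter site near CkIIbeta2 and Cpr56F (2R at 16176949), they were 902, 108 and 24.6. The nearest start there was that of CkIIbeta2, and Cpr56F encodes a protein of the cuticle. An intronic site of CG40006 (2L at 22555680) had 528, 62.5 and 10.3, and a coding site of CG31935 (2L at 1610111) had 449.7, 54.6 and 16.6. Most of the decline of these 5 sites from their first level was complete before their peak left the list. The opposite order was seen on 3R at 1467841, where coverage was 69.6, 161 and 50.3. Of the 5 largest rises from cycle 8 to cycle 13 this was the only one whose centre lay outside a late cycle 14 interval.

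The members with the smallest falls after cycle 13, the highest late cycle 14 coverage or, with the exception just given, the largest rises before cycle 13 all had their centre inside a late cycle 14 interval. An intergenic site between Sox21b and D, on 3L at 14143184, had 735, 1746 and 2504. D encodes a SOX-domain factor needed for segmentation and the nervous system. An intronic site of psq, on 2R at 6469228, which encodes a DNA-binding protein with a BTB domain, had 978, 2094 and 2906. Intronic sites of jing, a zinc-finger gene, on 2R at 2461109 and 2461434, had 1355, 2474 and 2642, and 406, 1383 and 1944. These sites gained ZLD signal at each stage. The same held for the site near jigr1 on 3R at 21459360, with 356, 817 and 1049, and for a site near CG13335 on 2R at 9457816, with 1143, 1187 and 1672. A site with no label on 2L at 7545472 had 123, 206 and 283, and a further site by Doc2 on 3L at 9022288 had 427, 1130.3 and 1252.

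Position labels were available for 195 members (12%), through the study's peak tables, of which the first rows, those with the strongest peaks, were used. In the cycle 8 table, 193 lost sites and 1263 sites in all 3 lists had a label. Coding sequence, which in that scheme means any exon, was the label of 76 lost sites (39.4%, 32.4 to 46.7) and of 240 sites in all 3 lists (19.0%, 16.9 to 21.3). Promoters were labelled at 11 lost sites (5.70%, 2.88 to 9.97) and at 196 sites in all 3 lists (15.5%, 13.6 to 17.6). Intronic labels were given to 50 lost sites (25.9%) and 410 sites in all 3 lists (32.5%), and intergenic labels to 55 (28.5%) and 385 (30.5%). Over all labelled sites of that table (n = 1492) the coding share was 21.9% and the promoter share 13.9%. Strong cycle 8 sites that were later lost thus carried the coding label about 2 times as often as sites in all 3 lists, and their promoter share was lower, with intervals that did not overlap for either label over the whole table. Sites are not replicates and the intervals treat each as independent, so no test is given. Sites in the cycle 8 list only were not counted by label, so these shares are not shown to be particular to the lost sites.

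Among sites of like rank, the intervals of the coding share did not overlap beyond the first 500 rows, while those of the promoter share did. This describes the counts and is not a test, since sites are not replicates. Over all labelled sites of the cycle 8 table, 25.7% were coding in rows ranked over 1000 and 22.3% in the 500 rows before these. The first 500 rows had 15.8%. The promoter shares over all labelled sites were 9.61%, 12.3% and 21.9% in the same order. In rows ranked over 1000 in the cycle 8 table, 55 of 130 lost sites (42.3%, 33.7 to 51.3) and 102 of 496 sites in all 3 lists (20.6%, 17.1 to 24.4) were coding. In the 500 rows before these the shares were 41.9% of 43 (27.0 to 57.9) and 20.2% of 371 (16.2 to 24.7). In the first 500 rows 3 of 20 lost sites were coding (15%, 3.21 to 37.9), against 63 of 396 sites in all 3 lists (15.9%, 12.4 to 19.9), and without the sites in late cycle 14 intervals 3 of 13 were (23.1%, 5.04 to 53.8), so that few sites bear on these rows. Promoters held 5.38% (2.19 to 10.8) of the lost sites and 11.1% (8.46 to 14.2) of the sites in all 3 lists in rows ranked over 1000, and 9.30% (2.59 to 22.1) and 12.9% (9.70 to 16.8) in the 500 rows before these. In the first 500 rows they held 0 of 20 lost sites, which allows a share of up to 16.8%, and 93 of 396 sites in all 3 lists (23.5%, 19.4 to 28.0). Without the sites in late cycle 14 intervals, 76 of all 180 labelled lost sites (42.2%) were coding. The lost sites had late cycle 14 medians of 30.9 for coding sites, 40.6 for intergenic sites, 37.2 for intronic sites and 30.9 for promoter sites. The rule itself sets these values low. At cycle 13 the medians were 139, 192, 183 and 124 in the same order. Without the sites in late cycle 14 intervals, the intergenic and intronic medians at cycle 13 were 157 and 173. For the sites in all 3 lists the log2 ratio of late cycle 14 over cycle 13 had a median of -0.89 at coding sites and 0.04 at intronic sites. Coding was the label with the lowest median ratio among the sites that stayed in the lists.

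**Figure D5:**
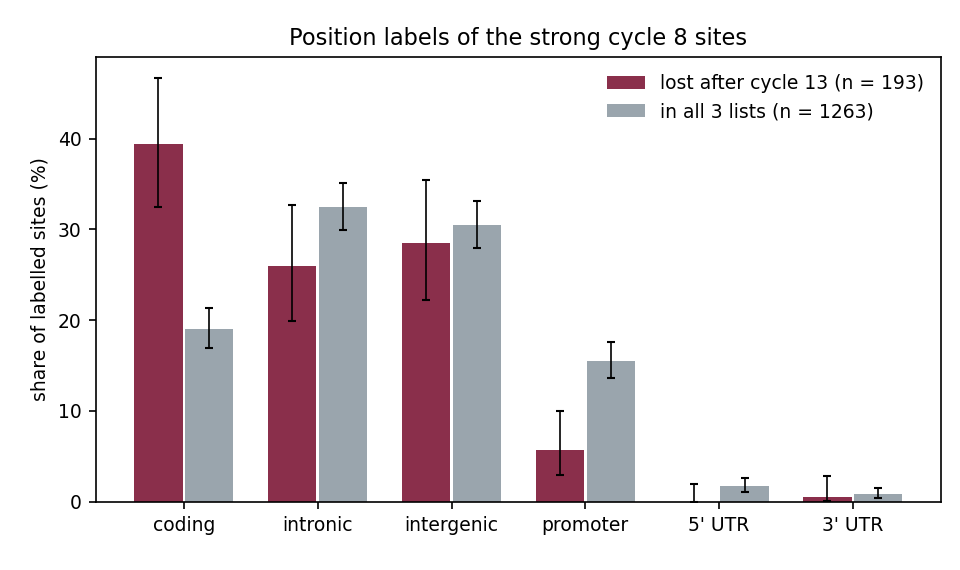
Share of labelled sites (%) by position label, for 193 lost sites (left bars) and 1263 sites in all 3 lists (right bars) with a row in the part of the cycle 8 peak table used; error bars are exact 95% intervals for counting error. Coding labels stand at 39.4% and 19.0%, promoter labels at 5.70% and 15.5%.

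The labelled lost sites given next were chosen for the known roles of their genes after their values had been seen, so they are examples and say nothing of the genes of the lost sites as a group. Coding sites had 662, 129 and 33.2 in cycles 8, 13 and late 14 in Mhc (2L at 16780697), the muscle myosin heavy chain. In Msp-300 (2L at 5201904), a giant spectrin-repeat protein that anchors nuclei, they had 696, 451 and 52.6. A coding site of rhea (3L at 8566295), which encodes talin, the link of integrins to actin, had 445, 141 and 49.2. In jbug (2R at 18620547), a filamin, the values were 779, 203 and 58.9. The 4 sites shared the order of the stages, but the log2 ratio of late cycle 14 over cycle 13 was -1.52 in rhea and -3.10 in Msp-300.

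Further examples were chosen in the same way. A coding site of Lsp2 (3L at 12123278), which encodes a storage protein of the late larva, had 819, 212 and 36.6. The promoter site of Ilp3 (3L at 9795082), an insulin-like peptide, had 426, 221 and 49.8. Intronic sites of fru (3R at 14292919) and dsx (3R at 3792026), transcription factors of sexual differentiation, had 522, 198 and 50.9, and 362, 206 and 54.3. The promoter site of wor (2L at 15425665), a Snail-family gene of neuroblasts, had 473, 184 and 30.9, and a coding site of side (3R at 23215439), which guides motor axons, had 497, 199 and 24.6. An intronic site of scrib (3R at 22413306), a polarity gene, had 765, 264 and 18.9. Coding sites had 907, 206 and 48.1 in RpL6 (3R at 27421789), a ribosomal protein, and 621, 134 and 33.8 in brm (3L at 15967393), the ATPase of a chromatin remodelling complex. The chromatin remodeller Chd1 (2L at 2980332) had 929, 211 and 30.9 in its coding region.

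Lost sites near genes that pattern the embryo were counted next. Within 5000 bp of the 57 genes with a position among 63 in the lists of patterning, cellularization and early zygotic genes, 27 of 459 sites were lost sites (5.88%), and 224 were in all 3 lists. Lost sites made up 9.30% (8.51 to 10.1) of the 5042 sites within 5000 bp of any gene with a position used here, 8.75% at zygotic and 8.35% at maternal genes, 13.6% of the 8489 sites farther away and 12% of all sites. Part of the gap to the share over all sites is thus shared by sites near any gene of the table. They numbered 1 of 46 sites at gap and terminal genes, 6 of 68 at pair-rule genes, 1 of 32 at segment polarity genes, 7 of 125 at Hox genes, 9 of 114 at dorsal-ventral genes, 1 of 22 at cellularization genes and 2 of 52 at gut genes and other regulators. The list shares lay between 2.17% and 8.82%, and those of pair-rule genes (8.82%) and dorsal-ventral genes (7.89%) were close to the shares at zygotic and maternal genes. No test was made, since sites of a locus are not independent and the lists were chosen with earlier results known.

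The strongest of them in each list kept a higher level at late cycle 14 than the typical lost site, with 2 exceptions. Near opa, a pair-rule gene for a zinc-finger factor, the site on 3R at 679742 had 325, 236 and 138 in cycles 8, 13 and late 14 (122 to 157). Near tld, which encodes a protease that frees the ligand Dpp from its inhibitor, the intronic site on 3R at 20575869 had 484, 228 and 96.1 (82.1 to 112). The site near the terminal gap gene hkb, on 3R at 171100, had 135, 91.7 and 58.9 (48.1 to 71.5). Near the Hox gene Ubx, the site on 3R at 12545506 had 269, 233 and 242 (219 to 266), so that its signal was about the same at all stages. At CG14014 and CG18269, early zygotic genes, the site on 2L at 5547922 had 147, 108 and 55.5 (45.0 to 67.7). The site near hh, the signalling ligand of the segment border, on 3R at 18957950, had 110.4, 118 and 37.8 (29.2 to 48.0). The site near Sry-alpha, which is needed for cellularization, on 3R at 25868060, had 104, 65.2 and 30.9 (23.2 to 40.3). Those near hh and Sry-alpha were the exceptions, at or below the median of 37.8 over all lost sites. The nearest late cycle 14 midpoint lay 260 bp from the Ubx site and 405 bp from the opa site. For the tld, hkb and CG14014 sites the distance was 700, 1105 and 3000 bp. For the hh and Sry-alpha sites it was 750 and 1195 bp. The other members of these lists had late cycle 14 values from 18.9, at a site of sim, to 85.2, at a site near Doc2.

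How often a site was lost varied with its height at cycle 8. When the sites with a cycle 8 peak were ordered by that height and divided into 5 groups of equal size, lost sites made up 9.54% of the lowest group, 12.9%, 20.6% and 27.0% of the next and 14.8% of the highest group. Sites in the cycle 8 list only took 68.8% of the lowest and 3.02% of the highest group, and sites in all 3 lists took 20.9% and 82.0%. Within the lost sites, the median log2 ratio of late cycle 14 over cycle 13 was -0.89 in the lowest group and -2.06 in the highest, while their late cycle 14 median was 43.5 and 33.8. Higher members therefore had the larger declines and ended at about the same level as lower ones. A member had to reach the cycle 13 list and miss the late cycle 14 list, so the rule bounds these values at both ends. Across lost sites, which share their libraries, the Spearman coefficient between cycle 13 and late cycle 14 coverage was 0.32, against 0.90 across the 4393 sites in all 3 lists.

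The share of sites that were lost was similar on the 4 arms, with 350 of 3050 on 2L (11.5%), 418 of 3213 on 2R (13.0%), 375 of 3235 on 3L (11.6%) and 483 of 4033 on 3R (12%). The lost sites stood farther from other sites than those in all 3 lists did. Their nearest other site was a median of 1916 bp away, against 1148 bp for sites in all 3 lists, 2112 bp for sites in the cycle 8 list only and 1389 bp for all sites. None lay within 10000 bp for 179 lost sites (11.01%), against 4.23% of the sites in all 3 lists, 11.42% of the sites in the cycle 8 list only and 7.04% of all sites. A site in all 3 lists lay within 2000 bp of 386 lost sites (23.7%), against 41.1% of the sites in all 3 lists, 18.1% of the sites in the cycle 8 list only and 30.1% of all sites. By these distances the lost sites stood nearer to the sites in the cycle 8 list only than to those in all 3 lists. The nearest site of a lost site was another lost site in 258 cases (15.9%, against 11.7% over all sites) and a site of the cycle 8 list only in 566 cases (34.8%, against 25.1%). It was a site in all 3 lists in 503 cases (30.9%, against 33.5%). For sites in the cycle 8 list only, the nearest was a lost site in 15.9% and a site of their own class in 40.9%, so these shares were not particular to the lost sites, and none of them was tested.

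Most lost sites were single in their order along the arm. Of the 1626, 1139 had no lost site as an immediate neighbour, 388 formed 194 neighbouring pairs and 81 formed runs of 3. There were 2 runs of 4 and 2 runs of 5. Lost sites made up 12% of all sites on the 4 arms. Runs of other classes were not counted, so nothing is read from these counts. The runs of 5 spanned 2R from 3111393 to 3134182 and 3R from 5756425 to 5795098. The first of these lay in the 100000 bp window with the most lost sites, on 2R from 3100001 to 3200000, which held 9 lost sites, 8 sites of the cycle 8 list only and no site in all 3 lists among 20. Coverage over this run ranged between 63.7 and 269, then 59.9 and 122, and then 15.4 and 53.8 over the 3 stages. The window on 3L from 4400001 to 4500000, with the CG11345 site, held 7 lost sites and 14 of the cycle 8 list only among 26, and 2 in all 3 lists. Of the 963 windows with sites, 748 held a lost site, and the windows given were among those with the most.

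In 293 pairs of neighbours 500 to 2000 bp apart, 1 was a lost site and 1 a site in all 3 lists. The rule thus sets the difference between them. Lost sites with their centre in a late cycle 14 interval were left out. A site with such a neighbour on both sides was counted in 2 pairs. The median log2 ratio of late cycle 14 over cycle 13 was -1.24 for the lost sites and -0.38 for their partners. The median of all 4393 sites in all 3 lists was -0.09. The partner changed by less than 0.5 on the log2 scale in 143 of the 293 pairs, against 2573 of the 4393 sites, and was lower by 2-fold or more in 67, against 503 of the 4393. The coding site of CG32037, on 3L at 9483787, had 1477, 435 and 46.3 in cycles 8, 13 and late 14. A site 783 bp away, at 9484570, had 1430, 1739 and 1686 and so began at the same level. The lost site in Msp-300 given above had a partner 881 bp away, at 5202785, with 2282, 2509.7 and 1873. These 2 pairs and the next were chosen after their values had been seen. In 1 of the pairs with declines on both sides, the site on 2R at 20567380 had 245, 97.0 and 6.86 and its partner 790 bp away had 1461, 669 and 96.1.

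Read copies differed between the stages. At the lost sites the median number of reads per distinct position and strand was 4.13, 1.58 and 1.64 over the stages, and the medians of distinct positions were 52, 105 and 40.5. Counted as 1 read per position and strand and scaled in the same way, the medians were 165, 109 and 56.5, so that the order of the stages was kept and the decline was smaller. This count cannot exceed 300 at a centre and is reached at the strongest sites. The part of read copies in the decline was not tested.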

How the data were processed

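ZLD ChIP-seq was analysed in 3 libraries, 1 per stage, from wild-type embryos. The authors mapped 25 bp reads to dm3 with Bowtie 0.12.5, extended them to 150 bp, scaled coverage to 10000000 reads and called peaks in each library separately. Each deposited peak list holds intervals and their heights, which are coverage signal values. Each deposited read file holds the position and strand of every mapped read.

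Sites were built by single linkage of interval midpoints within 150 bp. The centre was the position of highest pooled coverage between the midpoints and 75 bp beyond them. Read numbers under 3 were set to 3 in log2 ratios. Python 3.11.15, numpy 2.4.6, scipy 1.17.1 and pandas 2.3.3 were used, and matplotlib 3.10.9 for plots. Joining, counting and ratio functions were tested on simulated data.

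Stages were compared by size alone, since none had a replicate. Named sites were the 10 highest at cycle 8, the 5 largest and 5 smallest falls after cycle 13, the 5 highest at late cycle 14, the 5 largest rises and 5 largest falls before cycle 13, and the strongest site of each gene list. The 5 falls and rises were taken among sites at or above the median coverage. The members, lists and rules were chosen with earlier results of these data known, and the sites in late cycle 14 intervals were set apart after seeing the data.

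Labels and gene names come from the study's peak tables, of which the first 1761, 1758, 1760 and 1758 rows of the cycle 8, cycle 13, late cycle 14 and pooled tables were used, and were matched within 75 bp. Gene positions come from the first rows of its gene table. The alternatives were other joining distances, centres, scalings, floors and background multiples. Sequence motifs and an input library were not analysed here.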

Additional observations from a re-analysis of the deposited data

How the results depend on the processing

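No paired analysis was possible because there was 1 library per stage. The number of lost sites lay between 1519 and 1635 for joining distances of 50 to 500 bp, and was 1631 with centres at the highest coverage and 1587 with overlap of intervals. It was 781 when only peaks at or above the median cycle 8 height were used. Reads over 300 bp gave medians of 217, 128 and 59.5 in cycles 8, 13 and late 14, scaling by reads outside sites gave 289, 191 and 84.8, and 1 read per position and strand gave 109 at cycle 13 and 56.5 at late 14. The median log2 ratio of late cycle 14 over cycle 13 kept its sign and lay between -1.38 and -1.02 over all alternatives, and that of cycle 13 over cycle 8 between -1.25, with the median of ratios, and -0.52. The share of sites lower by 2-fold or more was 60.9% with reads over 300 bp, 51.4% with 1 read per position and strand, 57.1% with the median of ratios and 71.2% with the background subtracted. Late cycle 14 coverage was at or above 1.5, 3 and 4 times the background at 99.5%, 96.9% and 93.5% of sites. The distance to the nearest other site was 4849.5 bp when neighbours were limited to the stronger part of the sites. Leaving out the 22 sites with a centre in a late cycle 14 interval, an alternative chosen after seeing the data, moved no other value beyond its interval. Motif content, planned as a further result, was not run because no dm3 sequence was used here.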

Other observations

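Outside the late cycle 14 intervals, a few lost sites kept high coverage beside a called peak. On 3R at 19077771 coverage was 1274, 1036 and 559 (524 to 595) in cycles 8, 13 and late 14, and a late cycle 14 midpoint lay 235 bp away. On 2L at 2751236 it was 203, 391 and 279.7 with a late cycle 14 midpoint 435 bp away. The site on 3R at 6452103 was higher at each stage, with 184, 269.7 and 359 (331 to 388), and was not in the late cycle 14 list within 150 bp, while a site in all 3 lists lay 403 bp away. These 3 had the highest late cycle 14 coverage of the 1604 sites, and 64 of the 1604 reached 61.5, the 5th percentile of the heights in that list. On the X chromosome, which the rule left out, 216 of 2123 sites (10.2%, 8.92 to 11.54) had peaks in the cycle 8 and cycle 13 lists and none in the late cycle 14 list.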
